A study of Danio rerio with 17 samples.

Results

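The genes examined were 7 maternal components of Nodal and BMP signalling, chosen by symbol out of 32520 Ensembl genes with counts: the ligand gdf3, the type I receptors acvr1l and acvr1ba, the signal transducers smad2 and smad5, and the transcription factors foxh1 and eomesa. Their RNA was followed along the animal-vegetal axis of zebrafish (Danio rerio) oocytes. Oocytes had been cut in a cryostat and RNA sequenced from 5 consecutive segments, with A the most animal and E the most vegetal. The 17 libraries came from 4 oocytes, with 4, 3, 4, 3 and 3 libraries from A to E. Oocyte 2 was analysed without E, oocyte 3 without B and oocyte 4 without D. The labels give no strain, female, age or stage of the oocytes and name no treatment. Whether the 4 oocytes came from different females is therefore unknown. The p-values rest on the spread between libraries of these oocytes, which the tests combine with the spread of other genes. The main fit did not pair the slices by oocyte.

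Of the 7 members, 5 matched 1 entry of the gene table: gdf3 (ENSDARG00000037995), acvr1l (ENSDARG00000014986), smad2 (ENSDARG00000006389), smad5 (ENSDARG00000037238) and foxh1 (ENSDARG00000055630). The other 2 could not be matched to 1 entry, because the table names 2 entries EOMES and 2 entries ACVR1B without saying which is the a copy. Both entries of each pair were therefore followed, 9 entries in all. The EOMES entry ENSDARG00000104243 had 0 reads in all 17 libraries, a count that allows up to 0.127 to 0.740 CPM depending on the library. CPM, the unit of all levels here, is the read count scaled to a common library size. The other 8 entries had between 245 and 24898 reads in every library and were all tested. At the fewest reads of each entry the counting error was 1.67% to 6.39%, well below the spread between libraries described for each gene. This error follows from the number of reads alone and leaves out the sampling of RNA molecules before sequencing. The part of such sampling in the spread was not tested.

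Nodal and BMP ligands belong to the TGF-beta family and signal through paired serine/threonine kinase receptors. On the Nodal side, Gdf3 (also called Vg1) acts as the maternal partner of the zygotic Nodal ligands. The activin type I receptor Acvr1b phosphorylates Smad2, and Smad2 enters the nucleus and binds DNA with partners such as Foxh1 and Eomesodermin to induce mesendoderm. On the BMP side, the type I receptor Acvr1l (Alk8) activates Smad5, which patterns the dorsoventral axis. In zebrafish these transcripts are loaded into the egg before the embryonic genome is active, and mesendoderm forms at the margin, between the animal cells and the yolk.

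Libraries held 4054233 to 23672322 reads in genes. Oocyte 1 had fewer reads (at most 9319365, against at least 13833357 elsewhere) and almost no spike-in RNA (at most 0.00239%, against at least 0.185%), so results are also given without it. In segment C of oocyte 3 only 8535 genes had a read, the fewest of any library. That library also had the highest level of segment C for 7 of the 8 entries, all but gdf3. Of RNAs known from other work to lie at the animal pole, the summed level of pou5f3, CPEB1 and CCNB1 was 4648 to 4827 CPM in A and 1138 to 1296 CPM in E. The summed level of 6 known vegetal RNAs was 181 to 284 CPM in A and 5181 to 10901 CPM in E, in the order the labels give. All 8 oocyte marker entries found were read, and nobox, which was also sought, matched no entry. Of 17 follicle cell marker entries, 7 had reads and 10, among them STAR, amh and FSHR, had 0. The summed level of the follicle markers ranged from 70.3 to 335 CPM over all libraries, with 99.7 to 335 CPM in A and 152 to 258 CPM in E. The most read of them was a CYP11A1 entry, at up to 238 CPM. It made up most of the sum, with a mean of 128 CPM over the libraries, against 13.2 CPM for the next, krt8. The part of follicle cell RNA in the levels of the signalling genes was not tested. Levels are relative to the RNA of a slice of 1 oocyte, so fewer molecules of a gene in a segment and more RNA of other genes there cannot be told apart.

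Between the ends of the axis, 2 of the 8 tested entries changed, and they changed in opposite directions. The Smad2 partner foxh1 was 25.3-fold lower at the vegetal end, and the EOMES entry ENSDARG00000006640 was 3.67-fold higher there. The ligand, the receptors and the Smads did not pass the test. The quasi-likelihood test of edgeR was fitted over all 12549 genes with enough reads, and a gene was called at a Benjamini-Hochberg adjusted p under 0.05. Of all genes tested, 1.91% were called between E and A, with 1.03% higher and 0.885% lower in E. A joint test of any difference among the 5 segments called 1.67% of genes, and a test of a steady change per segment called 2.41%. The steady change called 1.18% of all genes as rising and 1.24% as falling towards E. Both tests called the same 2 entries, with the same directions, and none of the other 6.

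**Figure D1:**
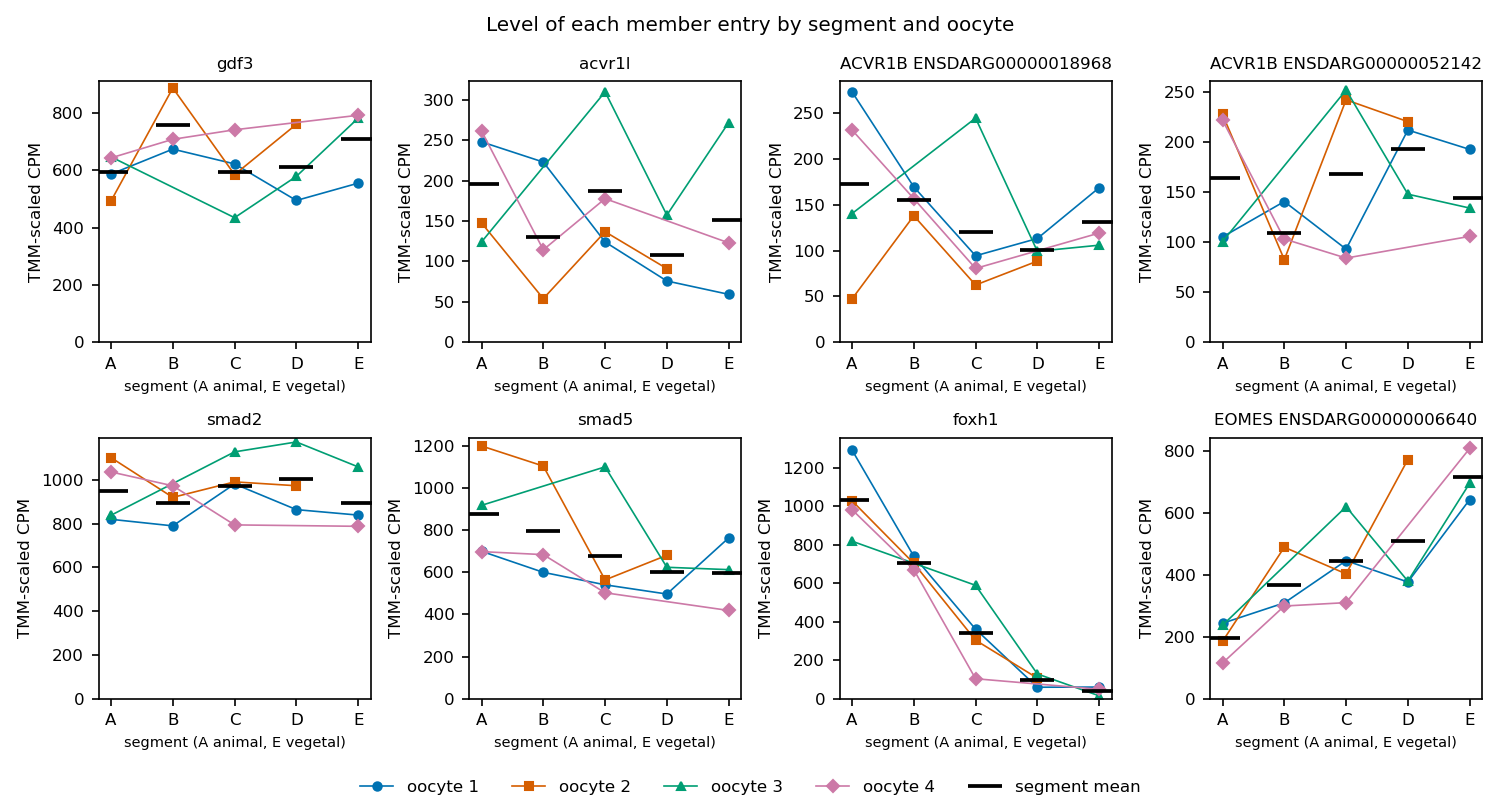
Level of each of the 8 read entries (TMM-scaled CPM, vertical axis, from 0) by segment from A to E (horizontal axis). Coloured points joined by lines are the libraries of 1 oocyte and black bars are the means of a segment. Levels of foxh1 fall from 818 to 1291 CPM in A to 14.4 to 59.8 CPM in E in every oocyte with both ends, levels of EOMES rise from 115 to 243 CPM to 643 to 808 CPM, and the lines of the receptors cross.

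The ligand gdf3 is considered first. In segment A its level was 586, 493, 646 and 642 CPM in oocytes 1 to 4. In segment B it was 673, 886 and 707 CPM in oocytes 1, 2 and 4, above every library of A. In segment C it was 622, 584, 434 and 740 CPM in oocytes 1 to 4.

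In segment D gdf3 stood at 494, 760 and 578 CPM in oocytes 1 to 3. In segment E it stood at 554, 781 and 791 CPM in oocytes 1, 3 and 4. The E libraries of oocytes 3 and 4 were higher than every A library, and that of oocyte 1 was lower than 3 of the 4, so the ends overlapped.

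Means of gdf3 ordered the segments B, E, D, C and A, from 755 ± 114 CPM (SD, n = 3) in B to 592 ± 71.6 CPM (n = 4) in A. Each neighbour in this order differed from the next by less than the larger SD of the pair, the measure used for every order given here. The log2 fold change of E against A was 0.26 ± 0.25 (SE), with a 95% interval of -0.25 to 0.77 and an edgeR adjusted p of 1. The change per segment was 0.02 (interval -0.09 to 0.14) on the log2 scale. Within oocytes, E was lower than A by 1.06-fold in oocyte 1 and higher by 1.21-fold in oocyte 3 and 1.23-fold in oocyte 4. How far segment A stood apart from the others depended on the scaling. With the factors the authors used for their normalized table, gdf3 was at 375 to 502 CPM in A and 781 to 970 CPM in B. It was then at 475 to 808 CPM in C, 609 to 942 CPM in D and 515 to 698 CPM in E. The A libraries were thus below all B, D and E libraries and overlapped C. The mean of A was the lowest under both scalings, 592 CPM with TMM and 458 CPM with the authors' factors. With these factors the edgeR adjusted p of E against A was still 0.566 and that of the joint test 0.179.

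None of the type I receptor entries passed a test. The receptor acvr1l, which carries BMP signals, was at 248, 148, 124 and 261 CPM in segment A of oocytes 1 to 4 and at 59.4, 272 and 123 CPM in segment E of oocytes 1, 3 and 4. The ends overlapped fully, since E held both the lowest and the highest of these 7 values. In the inner segments its range was 54.1 to 223 CPM in B, 124 to 310 CPM in C and 75.9 to 157 CPM in D.

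The oocytes differed in direction for acvr1l. In oocyte 1 it was lower in each segment than in the one before, at 248, 223, 124, 75.9 and 59.4 CPM, and E was 4.17-fold lower than A. In oocyte 4 E was 2.12-fold lower than A, whereas in oocyte 3 E was 2.19-fold higher. Means ordered the segments A, C, E, B and D, and each differed from the next by less than the SD. E against A gave a log2 fold change of -0.37 ± 0.45 (SE; 95% interval -1.28 to 0.54; edgeR adjusted p of 1). Without oocyte 1 its sign turned, to 0.15.

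The ACVR1B entry ENSDARG00000018968, 1 of the 2 candidates for acvr1ba, had 273, 47.3, 140 and 231 CPM in segment A of oocytes 1 to 4. In segment E it had 169, 106 and 119 CPM in oocytes 1, 3 and 4, within the range of A. Levels were 138 to 169 CPM in B, 62.5 to 244 CPM in C and 88.5 to 113 CPM in D.

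The ends did not differ beyond the spread for this entry, with a log2 fold change of -0.40 ± 0.46 (SE; 95% interval -1.33 to 0.53) and an edgeR adjusted p of 1. The ACVR1B entry ENSDARG00000052142 had 105, 227, 101 and 222 CPM in segment A of oocytes 1 to 4. In segment E it had 193, 134 and 106 CPM in oocytes 1, 3 and 4, again within the range of A. Its inner segments held 82.5 to 141 CPM in B, 84.1 to 252 CPM in C and 148 to 220 CPM in D.

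For ENSDARG00000052142 the log2 fold change of E against A was -0.18 ± 0.42 (SE; 95% interval -1.03 to 0.66), with an edgeR adjusted p of 1. The means of ENSDARG00000018968 were ordered A, B, E, C and D and those of ENSDARG00000052142 D, C, A, E and B, with no neighbour apart by more than the SD. With the authors' factors the highest mean was in B for the first and in D for the second, and in C for acvr1l. The balance of the ACVR1B entries, read as a ratio of reads within a library, needs no scaling between libraries. It varied most in segment A, where ENSDARG00000018968 had 2.60, 0.208, 1.40 and 1.04 reads per read of ENSDARG00000052142 in oocytes 1 to 4. In oocyte 2 the ratio was 0.208 in A, 0.258 in C and 0.402 in D, but 1.67 in B.

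With the spread pooled over segments, the receptors were the least even members, and they had the lowest mean levels (137 to 159 CPM). The SD within segments, pooled over segments, was 50.9% of the mean over all libraries for acvr1l. It was 49.0% for ENSDARG00000018968 and 40.7% for ENSDARG00000052142. For smad2 it was 14.5%, the lowest of the 8 entries, followed by gdf3. For smad5, foxh1 and EOMES it lay between 30.1% and 32.0%. The pooled figure does not describe single segments of foxh1, whose mean fell steeply along the axis. Set against the mean of its own segment, the SD of foxh1 ranged from 4.98% (B) to 58.9% (C), and was 57.8% at the vegetal end (E). A 2-fold lower level in E than in A lay within the 95% interval for each receptor entry and for smad5, and outside it for gdf3 and smad2.

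The transducer smad2, which carries the Nodal signal, was the most even member. Its level was 820, 1102, 839 and 1037 CPM in segment A of oocytes 1 to 4 and 839, 1060 and 788 CPM in segment E of oocytes 1, 3 and 4. The ends overlapped, and no library of any segment lay outside 788 to 1174 CPM. Segment means lay between 895 ± 94.3 CPM (SD, n = 3) in B and 1004 ± 157 CPM (n = 3) in D, in the order D, C, A, E and B, each within the SD of the next.

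For smad2, E against A gave a log2 fold change of -0.08 ± 0.23 (SE; 95% interval -0.55 to 0.39; edgeR adjusted p of 1). The evenness of smad2 depended on the scaling. With the authors' factors its range was 642 to 839 CPM in A, 917 to 1079 CPM in B and 867 to 1234 CPM in C. It was then 1066 to 1447 CPM in D and 694 to 947 CPM in E. The A libraries thus lay below all B, C and D libraries and overlapped E. On the authors' values the joint test called smad2 with limma (adjusted p of 0.0273), but not with edgeR and the authors' factors (adjusted p of 0.178).

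The BMP transducer smad5 was at 700, 1201, 919 and 699 CPM in segment A of oocytes 1 to 4. It was at 764, 613 and 419 CPM in segment E of oocytes 1, 3 and 4. Within oocytes, E minus A was -0.58 in oocyte 3, -0.74 in oocyte 4 and 0.13 in oocyte 1 on the log2 scale, and the ends overlapped.

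Means of smad5 stood in the order of the segments, from 880 ± 238 CPM (SD, n = 4) in A through 797, 677 and 601 to 599 ± 173 CPM (n = 3) in E, each within the SD of the next. This order depended on the scaling: with the authors' factors the means were 679 CPM in A, 888 CPM in B, 741 CPM in C, 742 CPM in D and 542 CPM in E, so that A stood below B, C and D. E against A gave a log2 fold change of -0.56 ± 0.28 (SE; 95% interval -1.12 to 0.01; edgeR adjusted p of 0.632). The steady change was -0.15 per segment on the log2 scale (interval -0.28 to -0.03), with an unadjusted p of 0.0180 in edgeR and an adjusted p of 0.369, so it was not called. Relative to smad2 in the same library, smad5 had 0.674 to 1.10 reads per smad2 read in A and 0.531 to 0.910 in E, ranges that overlapped. In segment C of oocyte 3 smad5 was at 1101 CPM, against 503 to 564 CPM in the other oocytes.

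The forkhead factor foxh1, a DNA-binding partner of Smad2, had the steepest gradient of the members. Its level was 1291, 1028, 818 and 982 CPM in segment A of oocytes 1 to 4 and 740, 703 and 670 CPM in segment B of oocytes 1, 2 and 4. In segment C it was 361, 303, 588 and 103 CPM in oocytes 1 to 4. Each of these B libraries lay below every A library and above every C library.

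In segment D foxh1 was at 59.0, 106 and 128 CPM in oocytes 1 to 3. In segment E it was at 59.8, 14.4 and 48.5 CPM in oocytes 1, 3 and 4. All libraries of E were far below all of A and B, while C overlapped D and D overlapped E.

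Segment A held 46.6% of the summed segment means of foxh1, B 31.8%, C 15.3%, D 4.42% and E 1.85%. Means went from 1030 ± 196 CPM (SD, n = 4) in A through 704 ± 35.0 CPM in B, 339 ± 200 CPM in C and 97.8 ± 35.3 CPM in D to 40.9 ± 23.6 CPM (n = 3) in E. Each step between neighbours exceeded the SDs of both segments. The log2 fold change of E against A was -4.66 ± 0.43 (SE; 95% interval -5.52 to -3.79; edgeR adjusted p of 4.80e-12). The fall was 2.30-fold per segment, with an edgeR adjusted p of 4.41e-12 for the steady change and 2.14e-13 for any difference. It was present in each oocyte: E was lower than A by 21.6-fold in oocyte 1, 56.3-fold in oocyte 3 and 20.2-fold in oocyte 4, and D was lower than A by 9.65-fold in oocyte 2. Without oocyte 1 the log2 fold change was -4.91, with an edgeR adjusted p of 1.17e-11. The step from A to B rested on the scaling: with the authors' factors A held 635 to 1011 CPM and B 742 to 858 CPM, which overlapped.

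**Figure D2:**
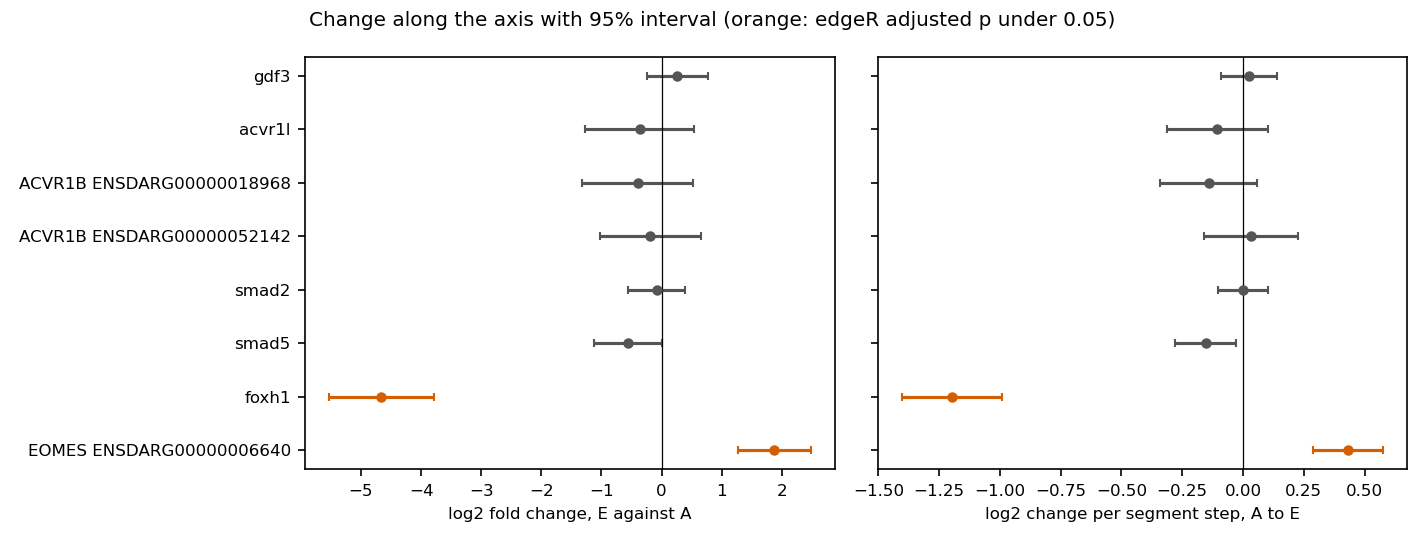
Change of each of the 8 read entries along the axis, as the log2 fold change of segment E (n = 3) against A (n = 4) at left and the log2 change per segment over the 17 libraries at right. Points are edgeR estimates, bars are 95% intervals and orange marks an adjusted p under 0.05. Only foxh1 (-4.66) and EOMES (1.88) are orange at left, and the bars of the receptors are wider than those of gdf3 and smad2.

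The T-box factor Eomesodermin cooperates with Smad2 in inducing mesendoderm. Its read entry, EOMES ENSDARG00000006640, was at 243, 185, 237 and 115 CPM in segment A of oocytes 1 to 4 and at 309, 489 and 299 CPM in segment B of oocytes 1, 2 and 4. In segment C it was at 445, 403, 620 and 310 CPM in oocytes 1 to 4. All B and C libraries lay above all A libraries, and B and C overlapped.

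In segment D EOMES was at 376, 772 and 379 CPM in oocytes 1 to 3. In segment E it was at 643, 695 and 808 CPM in oocytes 1, 3 and 4. The E libraries lay above all A and B libraries, and segment D of oocyte 2 lay within their range.

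Segment means of EOMES increased at every step, from 195 ± 59.4 CPM (SD, n = 4) in A through 366 ± 107, 444 ± 130 and 509 ± 227 CPM to 715 ± 84.4 CPM (n = 3) in E. The step from A to B exceeded the SD, and the later steps were within the larger SD of the neighbours. The shares of the summed means were 8.74%, 16.4%, 19.9%, 22.8% and 32.1%. E against A gave 1.88 ± 0.30 on the log2 scale (SE; 95% interval 1.27 to 2.48; edgeR adjusted p of 1.53e-05). The rise was 1.35-fold per segment, with an edgeR adjusted p of 4.06e-05, and the joint test gave 0.000346. Within oocytes E was higher than A by 2.64-fold in oocyte 1, 2.94-fold in oocyte 3 and 7.03-fold in oocyte 4, and D was higher than A by 4.17-fold in oocyte 2. Segment A of oocyte 4, at 115 CPM, was the lowest of all libraries. With the authors' factors A held 89.0 to 190 CPM and B 331 to 535 CPM, so the step from A to B was present under both scalings. The size of the last step depended on the scaling. With the authors' factors the means were 630 CPM in D and 643 CPM in E, and E (597 to 711 CPM) overlapped C (338 to 677 CPM).

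Ranges of A and E did not overlap for 2 of the 8 entries, foxh1 and EOMES, where 8.42% of all tested genes had such ranges. Ranges of A and B did not overlap for gdf3, foxh1 and EOMES, 3 of the 8, where 4.16% of all tested genes had such ranges. With the authors' factors, 10.9% of all tested genes had ranges of A and B apart, and the 3 entries were gdf3, smad2 and EOMES. For A and E these were 9.55% of all genes and 3 entries, gdf3, foxh1 and EOMES.

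Because foxh1 and EOMES ran in opposite directions, their ratio within a library spanned the widest range of the ratios computed, and it does not depend on how libraries are scaled. In segment A there were 5.31, 5.56, 3.45 and 8.55 foxh1 reads per EOMES read in oocytes 1 to 4. In B the ratio was 2.39, 1.44 and 2.24 in oocytes 1, 2 and 4. Every A library was above every B library, and every B library was above 1.

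In segment C there were 0.809, 0.753, 0.950 and 0.333 foxh1 reads per EOMES read in oocytes 1 to 4. In segment D the ratio was 0.157, 0.138 and 0.337 in oocytes 1 to 3, and in E 0.0931, 0.0207 and 0.0600 in oocytes 1, 3 and 4. It was lower at each available step in each of the 4 oocytes. The only overlap between neighbouring segments was between C of oocyte 4 (0.333) and D of oocyte 3 (0.337). Reads per gene also depend on transcript length, so a ratio of 1 does not mean equal numbers of molecules.

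Measured against gdf3 in the same library, foxh1 had 1.27 to 2.20 reads per gdf3 read in A, 0.793 to 1.10 in B, 0.119 to 0.221 in D and 0.0185 to 0.108 in E. In segment C of oocyte 3 this ratio was 1.36, and elsewhere in C it was 0.139 to 0.580. EOMES had 0.179 to 0.415 reads per gdf3 read in A and 0.890 to 1.16 in E. For both genes these ranges of A and E were apart, in the direction of the scaled levels. The ratios to EOMES and to gdf3 use the same reads as the levels, so they are no further support. How many of all genes had such ratios apart was not computed. With the authors' factors gdf3 itself had ranges of A and E apart.

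**Figure D3:**
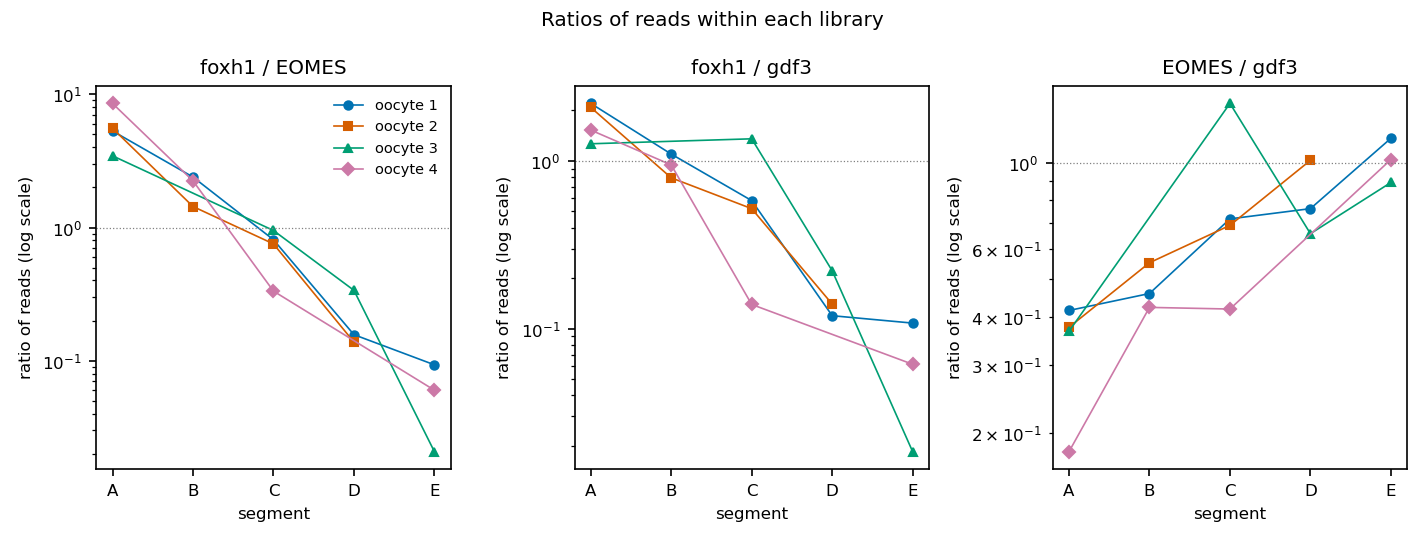
Ratios of reads within each library for foxh1 to EOMES, foxh1 to gdf3 and EOMES to gdf3 (vertical axes, log scale) by segment from A to E, with 1 coloured line per oocyte. The ratio of foxh1 to EOMES falls at every step, from 3.45 to 8.55 in A to 0.0207 to 0.0931 in E, and segment C of oocyte 3 is high for both ratios to gdf3.

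Leaving out each library and each oocyte in turn, other scalings, no filter, DESeq2, limma and a fit with the oocyte as a block kept both calls. Over these 29 alternatives the log2 fold change of E against A ranged from -5.01 to -4.22 for foxh1 and from 1.59 to 2.23 for EOMES, with adjusted p-values of at most 1.10e-10 and 0.000409. For the other 6 entries no alternative made a call between E and A.

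**Figure D4:**
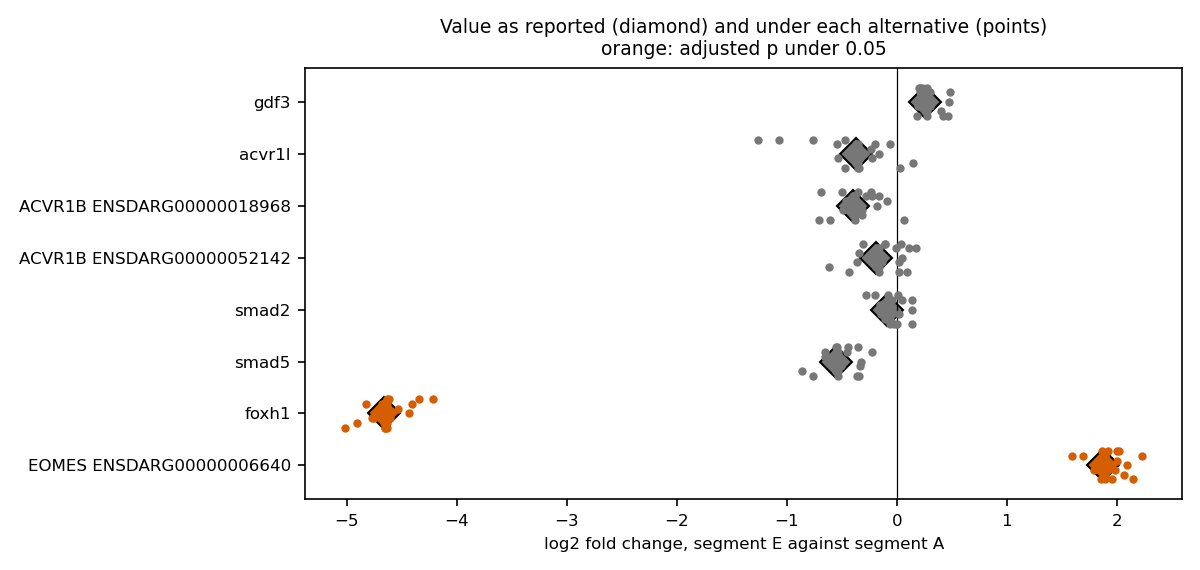
Log2 fold change of segment E against segment A (horizontal axis) for each of the 8 read entries, as reported (diamond) and under each alternative (points), with orange for an adjusted p under 0.05. The points of foxh1 lie between -5.01 and -4.22 and those of EOMES between 1.59 and 2.23, and those of smad2, acvr1l and both ACVR1B entries lie on either side of 0.

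Profiles most like each member were read from the Pearson correlation of log2 CPM over the 17 libraries, among 7799 genes with a symbol and a mean of at least 10 CPM. The libraries come from 4 oocytes, are scaled together and differ in depth, so these values only describe the libraries. The genes were picked by likeness over the same libraries, so their calls between E and A are no further support. For foxh1 the closest were SPEN (r = 0.937), CCDC102A (0.934) and micall2b (0.934), and edgeR called all 3 lower in E. For EOMES they were TPRA1 (0.899), GOLGA3 (0.850) and LIMA1 (0.847), all called higher in E. For the other members the highest r was 0.854 for smad2, with IPPK, followed by TAF7 and ZNF618. It was 0.803 for gdf3, with the ribosomal protein gene RPL3, followed by ints6 and tpcn3, and 0.801 for acvr1l, with TMEM144, followed by NAA40 and NAA30. For smad5 it was 0.794, with STK40, followed by KLF11 and GPS2. For ENSDARG00000018968 it was 0.794, with GNAO1, followed by DCUN1D4 and cebpg, and for ENSDARG00000052142 it was 0.791, with CCM2, followed by PLCG1 and snai2. None of these genes was called between E and A.

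Other genes of the pathways were taken from a list of 132 symbols in 6 roles. It gave 126 entries besides the members, of which 79 were tested and 33 had no read at all. Between E and A, 3 of the 79 rose towards the vegetal end and 4 fell, 7 calls where 1.91% of all tested genes were called. The list was chosen with earlier results of these data known, and it holds pou5f3, used above as an animal marker. Its share of calls is therefore no test of the pathways, and the counts of calls within its 6 roles are no test of the roles. The trend test called the same 7, and the joint test 5 of them. The median log2 fold change of the list was -0.01 and that of all tested genes 0.00. For 7 entries, no library of 1 end had more than 3 reads, and with these at their bound the list's median was again -0.01.

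Among ligands and receptors of the list edgeR made 0 calls between E and A, where 1.91% of all tested genes were called. In edgeR 1 ligand and 0 receptors had an unadjusted p under 0.05, as had 1010 of all 12549 tested genes. With 10 entries tested in each role, these counts do not set the roles apart from all genes. DESeq2, which called more of all genes than edgeR (counts below), called 0 receptors and 3 ligands. The 3 ligands were TGFB2, TGFB3 and bmp7a, named here after their values were seen. These had only 598 to 1825 reads over all libraries and no read in many of them. Of 28 other ligand entries 10 were tested, and the 3 most read were bmp15 and GDF9, which oocytes secrete to act on follicle cells, and gdf6a. Levels of bmp15 were 248 ± 72.9 CPM (SD, n = 4) in A and 375 ± 66.9 CPM (n = 3) in E, a log2 difference of 0.59 ± 0.31 (edgeR adjusted p of 0.632). GDF9 was at 121 ± 27.7 CPM in A and 207 ± 88.6 CPM in E (edgeR adjusted p of 0.655). The weakly read gdf6a was at 8.84 ± 10.6 CPM and 19.4 ± 33.4 CPM (edgeR adjusted p of 1). Of 16 other receptor entries 10 were tested. The fitted log2 fold change was below 0 for 8 of these, as it was for 6266 of all 12549 tested genes. Except for ACVR2A, each of the 8 had an SE larger than its change, and edgeR called none of the 10. The most read were BMPR1A (ENSDARG00000019728), a BMP type I receptor, with 325 ± 76.7 CPM in A and 289 ± 108 CPM in E, and the type II receptors ACVR2B (ENSDARG00000103108) and ACVR2A (ENSDARG00000011188). ACVR2B was at 127 ± 56.3 CPM in A and 105 ± 35.0 CPM in E, and ACVR2A at 128 ± 55.9 CPM and 65.7 ± 51.9 CPM. Their edgeR adjusted p-values were 1, 1 and 0.730. A second ACVR2B entry (ENSDARG00000044422) went the other way, at 35.5 ± 41.2 CPM in A and 68.7 ± 73.4 CPM in E, and was not called.

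Of 9 other Smad entries 7 were tested, with 0 calls by edgeR between E and A and 1 entry at an unadjusted p under 0.05. Of all 12549 tested genes 1.91% were called and 1010 had such a p, so the Smad counts are not particular. DESeq2 called 1, a second SMAD4 entry (ENSDARG00000012649) with 2004 reads over all libraries, named after its values were seen. The common mediator SMAD4 (ENSDARG00000075226) was at 203 ± 58.1 CPM (SD, n = 4) in A and 221 ± 149 CPM (n = 3) in E, a log2 difference of 0.12 ± 0.39 (edgeR adjusted p of 1). The inhibitory SMAD6 (ENSDARG00000053209) was at 46.2 ± 25.0 CPM and 43.1 ± 14.2 CPM. SMAD3 (ENSDARG00000036096), a close relative of smad2, was at 17.1 ± 17.4 CPM and 14.4 ± 13.9 CPM. Both had an edgeR adjusted p of 1.

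Among 28 tested intracellular regulators, 2 fell towards the vegetal end and 1 rose. Of all tested genes, 0.885% were called lower and 1.03% higher in E. SMURF1 (ENSDARG00000016086), a ubiquitin ligase that marks BMP-responsive Smads for degradation, was at 746, 576, 491 and 644 CPM in segment A of oocytes 1 to 4 and at 173, 181 and 199 CPM in segment E of oocytes 1, 3 and 4. The ends were far apart, and the segment means were 614, 651, 351, 223 and 185 CPM from A to E. The log2 fold change was -1.73 ± 0.34 (SE), with an edgeR adjusted p of 0.000474, and all 29 alternatives called it. The SUMO ligase PIAS4 (ENSDARG00000007081) was at 329 ± 37.2 CPM in A against 109 ± 19.3 CPM in E, a log2 difference of -1.60 ± 0.37 (edgeR adjusted p of 0.00526). Leaving out oocyte 1 (0.144), or its segment E alone (0.0656), ended the call.

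The regulator that rose was LDLRAD4 (ENSDARG00000070555), whose human protein binds receptor-regulated Smads and dampens TGF-beta signalling. It was at 0.35 ± 0.26 CPM in A and 110 ± 123 CPM in E (edgeR adjusted p of 0.00218). Segment E of oocyte 4 held 252 CPM against 44.4 and 34.6 CPM in oocytes 1 and 3, and the edgeR adjusted p was 0.232 without that library and 0.457 without oocyte 4. It was also not called with limma on the authors' values (adjusted p of 0.107), the third of the 29 alternatives that ended the call. A second LDLRAD4 entry (ENSDARG00000054941) was at 17.9 ± 12.4 CPM in A and 68.2 ± 68.0 CPM in E. That entry was not called (edgeR adjusted p of 0.697). The most read regulators besides SMURF1 were TRIM33, a ubiquitin ligase that acts on Smad complexes, and otud4, a deubiquitinase. TRIM33 was at 392 ± 64.0 CPM in A and 445 ± 78.2 CPM in E, and otud4 at 416 ± 171 CPM and 442 ± 160 CPM. Both had an edgeR adjusted p of 1.

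Of 15 tested nuclear partners, 1 fell and 1 rose, beside 0.885% and 1.03% of all tested genes. The fall was that of pou5f3 (ENSDARG00000044774), the Oct4-related activator of the embryonic genome, from 2756 ± 123 CPM (SD, n = 4) in A to 604 ± 65.5 CPM (n = 3) in E. Its log2 fold change was -2.19 ± 0.23, against -4.66 for foxh1. The rise was that of YAP1 (ENSDARG00000068401), the coactivator of the Hippo pathway, which was at 172, 300, 177 and 274 CPM in segment A of oocytes 1 to 4 and at 862, 595 and 627 CPM in segment E of oocytes 1, 3 and 4. All E libraries were above all A libraries. The log2 fold change was 1.59 ± 0.30, with an edgeR adjusted p of 0.000216, and without oocyte 1 it was 1.29 with an edgeR adjusted p of 0.0538. The other most read partners were nanog, at 2382 ± 170 CPM in A and 2683 ± 213 CPM in E, and the acetyltransferase CREBBP (ENSDARG00000112452), at 611 ± 310 CPM and 423 ± 210 CPM. Their edgeR adjusted p-values were 1 and 0.675.

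Among 9 tested extracellular inhibitors and processing enzymes, 1 rose and 1 fell between E and A, beside 1.03% and 0.885% of all tested genes. FURIN (ENSDARG00000062909), a convertase that cleaves TGF-beta family precursors, was at 53.2, 47.3, 94.6 and 73.8 CPM in segment A of oocytes 1 to 4 and at 101, 231 and 319 CPM in segment E of oocytes 1, 3 and 4. All E libraries were above all A libraries, a log2 difference of 1.69 ± 0.44 (edgeR adjusted p of 0.0223). The tolloid-family protease BMP1 (ENSDARG00000028071), a group that cleaves the BMP antagonist Chordin, was at 156 ± 56.5 CPM in A against 31.6 ± 19.2 CPM in E, a log2 difference of -2.30 ± 0.64 (edgeR adjusted p of 0.0408). Neither was called by the joint test. FURIN was not called between E and A in 7 of the 29 alternatives, with adjusted p-values up to 0.590 (without oocyte 4), and BMP1 in 11 of them, up to 0.518 (without oocyte 1). The single libraries whose loss ended the call were A of oocytes 1 and 2 and E of oocytes 3 and 4 for FURIN, where the adjusted p was 0.0903, 0.106, 0.117 and 0.497. For BMP1 they were A of oocytes 1, 2 and 3 (0.140, 0.0888 and 0.123) and E of oocytes 1 and 4 (0.159 and 0.343). PCSK6, a related convertase and the third most read of this role, was at 29.2 ± 28.7 CPM in A and 49.7 ± 7.32 CPM in E (edgeR adjusted p of 1). FURIN and BMP1 each had a second tested entry (ENSDARG00000070971 and ENSDARG00000028053), and neither of these was called. Their log2 fold changes of E against A were -0.16 ± 1.49 and 0.56 ± 1.29 (SE), of opposite sign to those of the called entries.

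**Figure D5:**
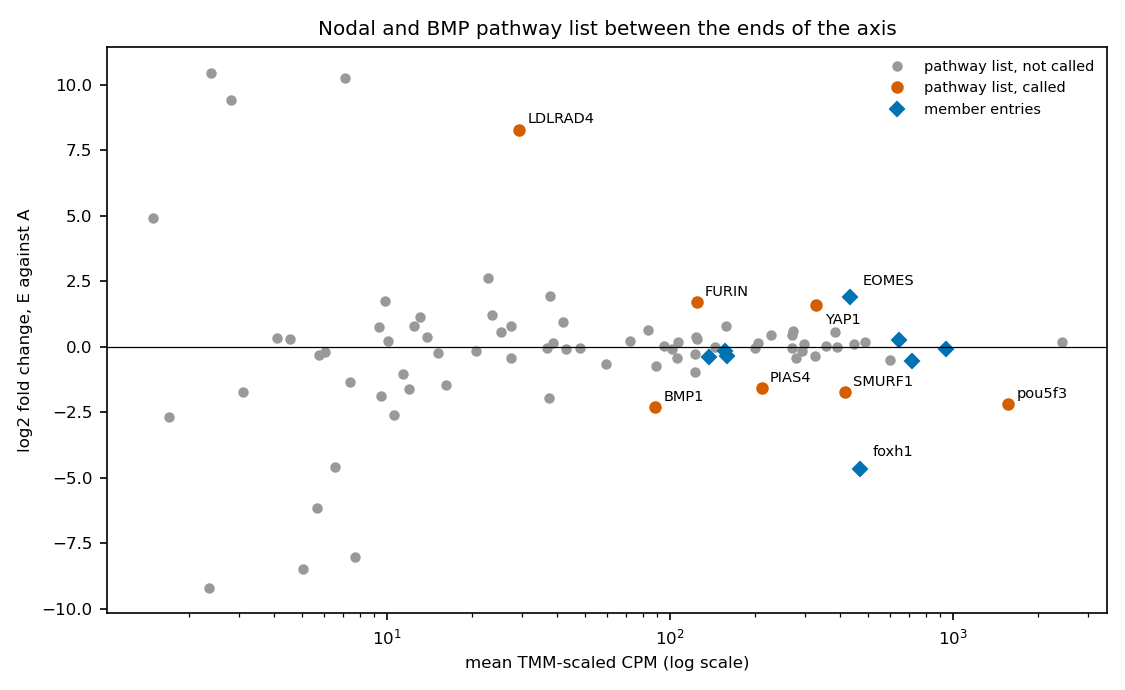
Log2 fold change of segment E against segment A (vertical axis) against the mean level over the 17 libraries (horizontal axis, TMM-scaled CPM, log scale) for the 79 tested entries of the pathway list (circles) and the 8 read members (diamonds). Orange circles are the 7 called entries of the list. FURIN, YAP1, LDLRAD4 and the member EOMES lie above 0, and pou5f3, SMURF1, PIAS4, BMP1 and the member foxh1 below.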

How the data were processed

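RNA of 17 oocyte segments was analysed. Per the labels' protocols, 5.5 ng of total RNA per library was depleted of ribosomal RNA before library construction (Lexogen SENSE). Per the submitters' processing notes, Trimmomatic, STAR 2.5.3a, HTSeq, DESeq2 and the build GRCz11 were used; the annotation release and strand setting are not given in the sources used here, so overlapping genes are uncertain. The authors deposited raw counts per Ensembl gene, and a table of normalized signal, the counts over 1 size factor per library. Multiplying back gave whole reads for 100% of values, within 0.01 read. Gene symbols came from a table pairing identifiers and symbols, matched without regard to case. Where no symbol with a copy letter existed, all entries of the symbol without it were used. Reads with more than 1 alignment (6.88% to 14.2% of all entries) were not assigned to genes, which lowers near-identical copies. Spike-in and summary entries were left out.

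Counts were tested with edgeR 4.0.16 (filterByExpr with a minimum count of 10, TMM scaling, quasi-likelihood F-test over all libraries, 2-sided), for segment E against A, for any difference among segments and for a steady change per segment, with Benjamini-Hochberg adjustment over 12549 genes. The genes tested held 99.8% of the reads in genes. Alternatives used DESeq2 1.42.0 and limma 3.58.1, the latter on log2 of the authors' value + 1. The members, lists and tests were chosen with earlier results of these data known. Named list genes were those called in any test and the 3 most read of each role, and 3 genes of closest profile were named per member. Libraries of 1 number are slices of 1 oocyte, so numbers pair them by design; deviations from segment means correlated with a median of 0.03 within oocytes (28 pairs) and -0.01 between them (87 pairs).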

Additional observations from a re-analysis of the deposited data

Results flagged for a closer look

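In 16 groups of 4 libraries (8 entries in segments A and C), a library far from the other 3 was looked for, and about 0.8 such groups are found by chance. There was 1. The level of smad5 in segment C was 1101 CPM in oocyte 3, against 503 to 564 CPM in the other oocytes. Without this library the steady change of smad5 was -0.16 per segment (log2; edgeR adjusted p of 0.239).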

How the results depend on the processing

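Calls of members were the same under every alternative for foxh1 and EOMES in all 3 tests. Of the other 6 entries, limma on the authors' values called smad2 in the joint test (0.0273), and no other alternative called any of them. The oocyte as a replicate block gave 288, 290 and 306 genes in the test of E against A, the joint test and the trend test, in place of 240, 209 and 303. With the block BMP1 stayed called between E and A (edgeR adjusted p of 0.0253), and the calls of members were the same. The call of BMP1 ended with the authors' factors, in edgeR without the block (adjusted p of 0.106) and with it (0.0804). It also ended with limma on the authors' values (adjusted p of 0.107). Genes called between E and A numbered 687 with DESeq2, and 152 to 258 without single libraries or oocytes, the lowest without oocyte 1. In the joint test there were 462 with the authors' factors, 329 with DESeq2, 552 with limma on the authors' values, 702 with the block and the authors' factors, and 151 to 248 without libraries or oocytes. In the trend test there were 1096 with no filter and 495 with DESeq2, and 202 to 360 without libraries or oocytes. Of the pathway list, E against A called 12 with DESeq2 and 4 to 7 without libraries or oocytes, with 4 without segment E of oocyte 4, without oocyte 1 and without oocyte 4. The joint test called 9 with the authors' factors, 10 with limma on the authors' values, 14 with the block and those factors, and 3 to 6 without libraries or oocytes, with 3 without oocyte 1. The trend test called 11 with no filter. The cause of these differences was not tested.

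The authors' factors shift the median log2 fold change of all genes between E and A by 0.22, and 67.0% of the calls were then higher in E (156 of 233) in place of 53.8%. In the trend test 66.8% were higher in place of 48.8%. The sign of uncalled log2 values near 0 turned as follows. Between E and A, smad2 was at 0.137 with the authors' factors, 0.135 with limma and 0.140 with the block and those factors, and at -0.28 to 0.0452 without libraries or oocytes. ENSDARG00000052142 was at 0.0465, 0.10 and 0.11 under the same alternatives and at -0.61 to 0.18 without libraries or oocytes. ENSDARG00000018968 was at 0.0642 with limma. Without libraries or oocytes acvr1l was at -1.26 to 0.15. In the trend test smad2 was at 0.00186 with RLE factors, 0.00188 with DESeq2, 0.0825 with the authors' factors, 0.0107 with no filter, 0.0723 with limma and 0.0757 with the block and the authors' factors, and at -0.0504 to 0.0332 without libraries or oocytes. Without libraries or oocytes acvr1l was at -0.32 to 0.0463 and ENSDARG00000052142 at -0.0468 to 0.115.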

Other observations

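Segment C of oocyte 3 had the highest level of its segment for acvr1l, both ACVR1B entries, smad2, smad5, foxh1 and EOMES, while oocyte 4 had the lowest level of segment C for 5 of the 8 entries. In segment D, the library of oocyte 1, the least deeply sequenced, was lowest for 6 of the 8 entries. Without segment C of oocyte 3 the joint test gave an edgeR adjusted p of 2.18e-15 for foxh1 and 0.000136 for EOMES.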
